A study of Mus musculus with 11 samples.

Results

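The genes described here are the chemokines and chemokine receptors of the mouse. They were chosen by symbol from the annotation of the array (Ccl, Cxcl and Cx3cl1 ligands, Ccr, Cxcr and Cx3cr1 receptors and the Ackr atypical receptors, without Cxcl12), and each gene is represented by the probe set, among those annotated to 1 gene, with the highest mean over all arrays. This gave 50 of the 18193 genes with such a probe set, 31 ligands and 19 receptors. Another 4 probe sets that carry a member symbol together with other symbols, all of the Ccl19, Ccl21 and Ccl27 families, were not used.

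RNA was measured on 11 Affymetrix arrays of 6 cell populations sorted from mouse bone marrow or periosteum, to compare skeletal stem/progenitor cells (SSCs) of marrow and periosteum with each other and with controls. Periosteal Mx1+Ocn- P-SSCs (2 arrays) carried Mx1-Cre; Rosa-Tomato with Osteocalcin-GFP, and marrow Mx1+Nes+ BM-SSCs (2 arrays) the same Cre and reporter with Nestin-GFP, and both were gated CD45-CD31-Ter119- and CD105+CD140a+. At 4 weeks of age all Mx1 mice had been lethally irradiated (9.5 Gy) and given wild-type C57BL/6 marrow, and 6 to 8 weeks later they received pIpC (polyinosinic:polycytidylic acid, an interferon inducer that switches on Mx1-Cre) at 25 mg/kg every other day for 10 days. The single array of Nes+ BMSCs used the same surface gate and Nestin-GFP, with or without Mx1. CD51+ BMSCs (2 arrays; CD51 is integrin alpha V) were gated CD45-CD31-Ter119- in marrow, with CD105 and CD140a named in the text of the study and not in the labels. CD45+ hematopoietic cells of marrow (2 arrays) and CD45-CD31-Ter119- Osx+ osteoprogenitors, which carry GFP driven by Osterix (2 arrays), were the controls. The genotype, age and any irradiation or pIpC of the mice behind the CD45+ and CD51+ cells, and the age and treatment behind the Osx+ cells, are not given in the sources used here. Mx1-Cre is also active in blood cells, the transplant leaves few host blood cells, and each sort pooled 2 or 3 male and female mice. The methods of the study call the repeat arrays biological repeats without saying whether each came from its own mice, and p-values cover the spread of these arrays. The source field of the Nes+ and Osx+ arrays names periosteal tissue, whereas the title of the Nes+ array names marrow.

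Chemokines are small secreted proteins that attract leukocytes along a gradient, and they are grouped as CC, CXC and CX3C by the spacing of their first cysteines. They act through G protein-coupled receptors, Ccr for CC, Cxcr for CXC and Cx3cr1 for CX3C ligands, while the atypical receptors (Ackr) bind chemokines without G protein signaling and capture, internalize or transport them. In bone marrow, stromal chemokines are known for retaining hematopoietic cells and for letting monocytes and neutrophils leave into the blood.

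Levels are deposited log2 signals after robust multichip averaging (RMA), so a difference of 1 is a doubling of signal, and levels of different probe sets are not on a common scale. Differences are between population means, their errors are standard errors from limma fitted over all 11 arrays, and a gene passed at an adjusted p under 0.05, with the Benjamini-Hochberg method over all 45037 probe sets. In sorted RNA of this kind, fewer cells of a type and less RNA per cell cannot be told apart.

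In both SSC populations array 2 stood apart from the other 9 arrays. The actin 3' control probe set read 7.81 on that of the P-SSCs and 12.78 on that of the BM-SSCs, against 13.23 to 14.25 elsewhere, and the bioB spike-in read 13.76 and 12.31, against 6.51 to 11.85. Over the 50 genes the repeat arrays differed with a root mean square standard deviation of 0.222 in CD45+ cells, 0.258 in CD51+ BMSCs, 0.385 in Osx+ cells, 0.876 in BM-SSCs and 1.32 in P-SSCs. Results for the SSCs are for this reason repeated with both arrays left out, which leaves 1 array per SSC population and takes its spread from the others. Counts given below without array 1 of an SSC population rest on its array 2 alone, so they carry the quality of that array. Sorting markers went against the labels in CD51+ BMSCs and on array 2 of the P-SSCs, and that of CD31 in part in both SSC populations. Ptprc, which encodes CD45, read 12.06 and 12.05 in CD45+ cells and 2.42 to 7.42 in SSCs, Nes+ BMSCs and Osx+ cells, but 10.23 and 10.17 in the CD51+ BMSCs that were gated as CD45-. Pdgfra, which encodes CD140a, read 11.44 and 11.79 in CD51+ BMSCs, 10.95 and 6.90 in BM-SSCs, 11.29 and 4.41 in P-SSCs and 3.62 and 3.42 in CD45+ cells. On array 2 of the P-SSCs, gated CD140a+, it was thus near the CD45+ level, and Lepr and Col1a1 read 3.18 and 4.93 there against 10.35 and 12.22 on array 1. Pecam1, which encodes CD31, read 6.64 and 6.75 in CD45+ cells. In the CD31- sorts it read 6.34 and 4.80 in P-SSCs and 5.09 and 5.97 in BM-SSCs. It was 3.23 to 3.98 in CD51+ BMSCs, Nes+ BMSCs and Osx+ cells. Nes read 6.17 and 7.08 in BM-SSCs and 7.41 in Nes+ BMSCs, both sorted by Nestin-GFP, and 6.94 and 7.42 in P-SSCs.

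The 50 genes differed in the population where their mean was highest. The highest population mean was in CD45+ cells for 17 genes, in CD51+ BMSCs for 13, in P-SSCs for 13, in BM-SSCs for 4, in Nes+ BMSCs for 3 and in Osx+ cells for 0, and the lowest mean was in Osx+ cells for 21. Of the 15 CC, CXC and CX3C receptors, 12 were highest in CD45+ cells (6 of 9 Ccr genes and 6 of 6 Cxcr and Cx3cr1 genes), while 3 of 4 atypical receptors, 4 of 11 inflammatory CC ligands and 4 of 5 neutrophil-attracting CXC ligands were highest in CD51+ BMSCs. Array 2 of the P-SSCs was the highest single array for 13 genes, 5 of them among the 7 homeostatic and barrier CC ligands, and 14 genes stayed under 6 on every array. Apart from Cxcl17 and Ccr4, every gene with its highest mean in P-SSCs had its highest value on that array. The lower quartile of all probe sets was 4.04 there and 3.86 on array 2 of the BM-SSCs, against 3.12 to 3.56 on the other arrays.

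**Figure D1:**
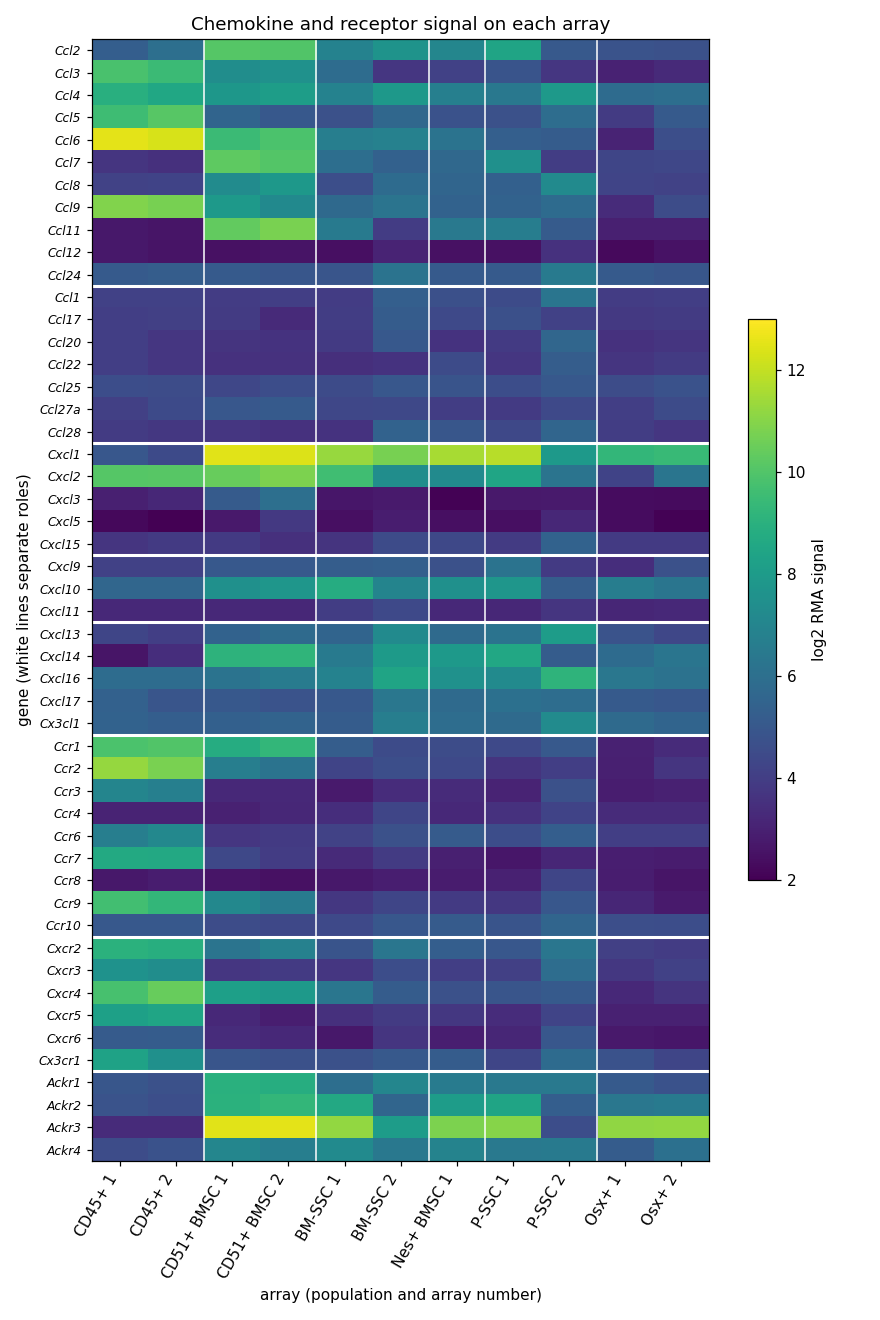
Log2 RMA signal of all 50 genes (rows, grouped by role, with white lines between roles) on all 11 arrays (columns, by population and array number), on a colour scale from 2 to 13. Most G protein-coupled receptors are bright on the CD45+ arrays, whereas Ccl2, Ccl7, Ccl11, Cxcl1, Cxcl14 and the atypical receptors are bright on the CD51+ arrays and dim on the CD45+ arrays.

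Between populations 11 comparisons were made, and 29 of the 50 genes passed in at least 1 of them. In these comparisons 103 gene-comparison pairs passed. In CD51+ BMSCs, 10 genes were higher and 12 lower than in CD45+ cells, where 2.95% and 2.9% of all probe sets passed in those directions. In Mx1+Ocn- P-SSCs 5 were higher and 15 lower (2.48% and 7.29% of all probe sets), and in Mx1+Nes+ BM-SSCs 4 were higher and 15 lower (2.18% and 6.26%). Osx+ cells had 2 higher and 18 lower (3.65% and 5.62%). The median difference of the 50 genes was -0.12 in CD51+ BMSCs, 0.50 in P-SSCs, 0.23 in the BM-SSCs and -0.13 in Osx+ cells, beside -0.09, 0.38, 0.18 and 0.02 over all probe sets. These 4 comparisons share the CD45+ arrays. They also depended on single arrays, since without CD45+ array 1 or 2 the totals were 2 and 3 genes for CD51+ BMSCs, 9 and 8 for each SSC population and 13 and 13 for Osx+ cells. Leaving out CD51+ array 1 or 2 gave 5 and 2 for CD51+ BMSCs and 12 and 12 for P-SSCs, and leaving out Osx+ array 1 or 2 gave 13 and 13 for P-SSCs, while Osx+ cells gave 13 without their array 1. When only the 2 populations compared entered the fit, 0 of the 20 calls for P-SSCs and 10 of the 19 for BM-SSCs were kept, with 22 of 22 for CD51+ BMSCs and 20 of 20 for Osx+ cells, and a further quantile normalization kept 14, 14, 11 and 16 of them.

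With array 2 of both SSC populations left out the counts rose, and the share of all probe sets that passed rose by a larger factor. P-SSCs then had 16 higher and 17 lower (22.6% and 26% of all probe sets), BM-SSCs 13 and 18 (15.3% and 22%), CD51+ BMSCs 15 and 18 (14.7% and 21.7%) and Osx+ cells 7 and 20 (18% and 23.4%). All 103 pairs that had passed still passed.

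Inflammatory CC ligands, which draw monocytes, eosinophils and T cells to inflamed tissue, fell into a group highest in CD51+ BMSCs and a group highest in CD45+ cells. Ccl2 is the main attractant of Ccr2+ monocytes, and its level was 5.31 and 6.003 in CD45+ cells, 10.11 and 9.998 in CD51+ BMSCs, 6.89 and 7.66 in BM-SSCs, 8.40 and 5.05 in P-SSCs, 7.04 in Nes+ BMSCs and 4.84 and 4.71 in Osx+ cells. Ccl7, another Ccr2 ligand, read 3.72 and 3.52 in CD45+ cells, 10.25 and 10.04 in CD51+ BMSCs, 5.97 and 5.40 in BM-SSCs, 7.53 and 4.001 in P-SSCs, 5.71 in Nes+ BMSCs and 4.28 and 4.35 in Osx+ cells. Ccl11 (eotaxin), the Ccr3 ligand that attracts eosinophils, read 2.69 and 2.63 in CD45+ cells, 10.36 and 10.79 in CD51+ BMSCs, 6.51 and 3.97 in BM-SSCs, 6.68 and 5.16 in P-SSCs, 6.43 in Nes+ BMSCs and 2.98 and 2.95 in Osx+ cells. For all 3 genes both CD51+ arrays lay above every other array, and the CD45+ and Osx+ arrays were among the lowest.

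Relative to CD45+ cells, CD51+ BMSCs were higher in Ccl11 by 7.92 (standard error 0.815, adjusted p = 0.00354), in Ccl7 by 6.53 (standard error 0.959, adjusted p = 0.0105) and in Ccl2 by 4.40 (standard error 0.94, adjusted p = 0.0376). Relative to Osx+ cells the differences were 7.61 (adjusted p = 0.00482), 5.83 (adjusted p = 0.0238) and 5.28 (adjusted p = 0.0328). Ccl8, a further monocyte-attracting ligand, read 4.16 and 4.22 in CD45+ cells, 7.29 and 7.86 in CD51+ BMSCs, 4.63 and 5.86 in BM-SSCs, 5.37 and 7.24 in P-SSCs, 5.59 in Nes+ BMSCs and 4.26 and 4.16 in Osx+ cells. It was higher in CD51+ BMSCs than in CD45+ cells by 3.39 (adjusted p = 0.0263) and than in Osx+ cells by 3.37 (adjusted p = 0.047), although P-SSC array 2 reached nearly the same level. In SSCs these ligands were intermediate, and only Ccl11 passed: it was higher in P-SSCs than in CD45+ cells by 3.26 (adjusted p = 0.0473) and lower in BM-SSCs than in CD51+ BMSCs, with a difference of -5.34 (adjusted p = 0.0425). With both second SSC arrays left out, the differences of P-SSCs from CD45+ cells were 2.75 (adjusted p = 0.00015) for Ccl2, 3.91 (adjusted p = 3.49e-06) for Ccl7 and 1.18 (adjusted p = 0.00504) for Ccl8, and those of BM-SSCs 1.23 (adjusted p = 0.00902) for Ccl2, 2.36 (adjusted p = 4.28e-05) for Ccl7 and 3.85 (adjusted p = 7.17e-06) for Ccl11. Array 1 of the P-SSCs read higher than array 2 by over 3 units for Ccl2 and Ccl7.

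A further 5 inflammatory CC ligands were highest in CD45+ cells. Ccl3 and Ccl4 are macrophage inflammatory proteins that attract myeloid cells, and Ccl3 read 9.82 and 9.503 in CD45+ cells, 7.39 and 7.55 in CD51+ BMSCs, 5.89 and 3.75 in BM-SSCs, 4.88 and 3.74 in P-SSCs, 4.14 in Nes+ BMSCs and 3.04 and 3.295 in Osx+ cells. Ccl5 (RANTES), made by T cells and platelets, read 9.57 and 10.15 in CD45+ cells, 5.55 and 5.05 in CD51+ BMSCs, 4.74 and 5.67 in BM-SSCs, 4.71 and 5.92 in P-SSCs, 4.79 in Nes+ BMSCs and 3.92 and 5.10 in Osx+ cells. Ccl6, a myeloid Ccr1 ligand of rodents, read 12.53 and 12.35 in CD45+ cells, 9.497 and 9.87 in CD51+ BMSCs, 6.70 and 6.84 in BM-SSCs, 5.35 and 5.20 in P-SSCs, 6.17 in Nes+ BMSCs and 3.09 and 4.62 in Osx+ cells. In these 3 genes every CD45+ array was above every other array, and for Ccl6 the CD51+ arrays came next and the Osx+ arrays last. Ccl9, also a Ccr1 ligand, read 10.93 and 10.76 in CD45+ cells, 7.97 and 7.21 in CD51+ BMSCs, 5.78 and 6.25 in BM-SSCs, 5.46 and 5.84 in P-SSCs, 5.46 in Nes+ BMSCs and 3.36 and 4.56 in Osx+ cells, with the CD45+ arrays again highest, the CD51+ arrays next and the Osx+ arrays lowest.

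Differences from CD45+ cells for Ccl6 were -2.76 (adjusted p = 0.02) in CD51+ BMSCs, -5.67 (adjusted p = 0.00141) in BM-SSCs, -7.17 (adjusted p = 0.000763) in P-SSCs and -8.59 (adjusted p = 0.000166) in Osx+ cells. Ccl9 and Ccl5 were also lower in all 4 populations, by differences of -3.25 to -6.88 for Ccl9 and -4.54 to -5.35 for Ccl5. Ccl3 was lower in P-SSCs, BM-SSCs and Osx+ cells (-5.36, -4.84 and -6.49), while its difference in CD51+ BMSCs of -2.19 (adjusted p = 0.133) did not pass. Ccl4 spanned a narrower range, from 5.83 on an Osx+ array to 8.92 on a CD45+ array, and passed only between Osx+ and CD45+ cells, with a difference of -2.84 (adjusted p = 0.0184). Ccl12 stayed between 2.29 and 3.55 and Ccl24 between 4.89 and 6.54, and neither passed in any comparison.

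**Figure D2:**
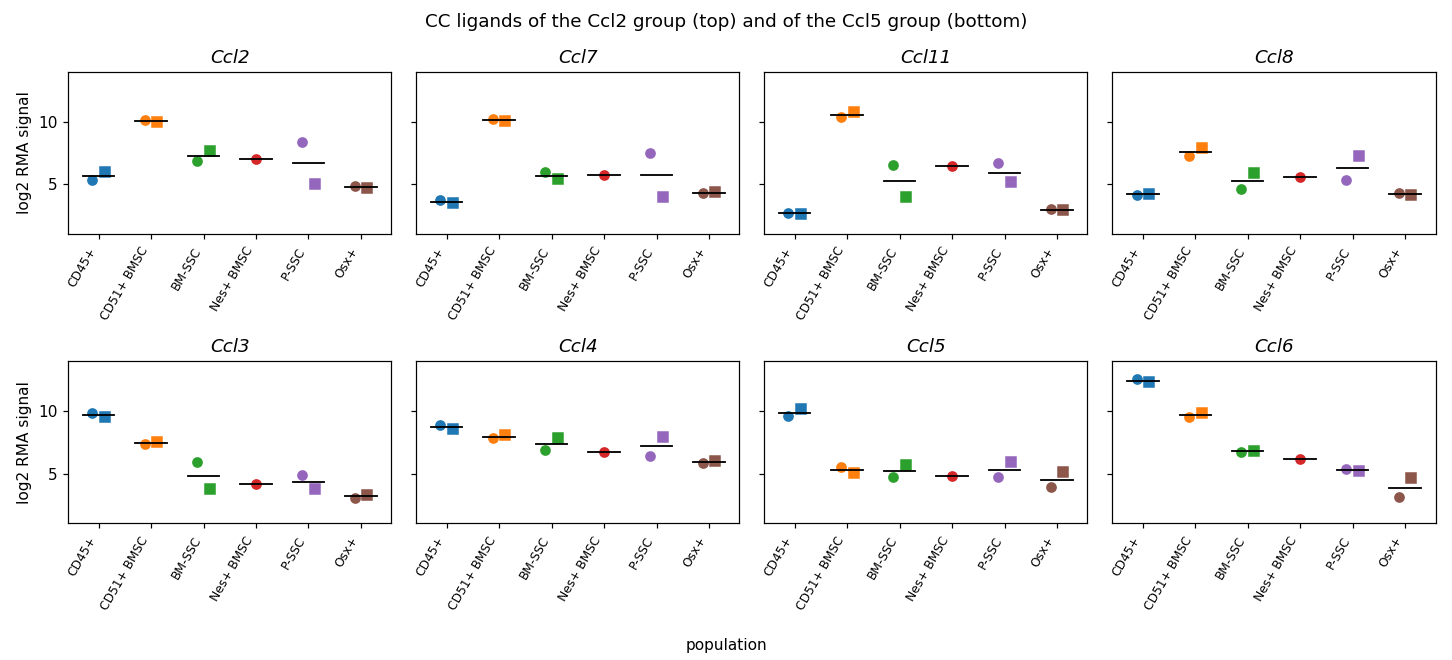
Log2 RMA signal (vertical axes, 1 to 14) of 8 inflammatory CC ligands by population (horizontal axes), with circles for array 1, squares for array 2 and a black line for the population mean. Ccl2, Ccl7, Ccl11 and Ccl8 in the top row peak in CD51+ BMSCs, and Ccl3, Ccl4, Ccl5 and Ccl6 in the bottom row peak in CD45+ cells.

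These groups matched gene order on chromosome 11. In the RefSeq annotation of GRCm38.p6, Ccl2, Ccl7, Ccl11, Ccl12, Ccl8 and Ccl1 are neighbours with 0 other protein-coding genes between them, and Ccl5, Ccl9, Ccl6, Ccl3 and Ccl4 form another run of neighbours, with 25 protein-coding genes between the runs. The 4 ligands highest in CD51+ BMSCs (Ccl2, Ccl7, Ccl11 and Ccl8) all lie in the first run, and the 5 highest in CD45+ cells make up the other. Ccl12 and Ccl1 in the first run were dim on most arrays.

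Homeostatic and barrier CC ligands, which place lymphocytes in lymphoid organs, skin and gut, were dim. The 7 measured here (Ccl1, Ccl17, Ccl20, Ccl22, Ccl25, Ccl27a and Ccl28) ranged from 3.29 to 6.26, and the top value came from P-SSC array 2. On the 9 arrays other than array 2 of the SSCs the highest was 5.13. Differences for 0 of the 7 passed in any of the 11 comparisons.

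Neutrophil-attracting CXC ligands act on Cxcr2. The promoters of Cxcl1, Cxcl2 and Cxcl3 are shown first because these 3 genes of a cluster on chromosome 5 carry the same motif close to the start and differed in their patterns across populations, and that of Cxcl10 because it is an interferon-induced ligand and the SSCs came from pIpC-treated mice. RefSeq promoter windows (GRCm38.p6, from 250 bases before to 50 after the start) were at hand for 37 of the 50 genes. The first motif searched, on both strands, was the NF-kappa B consensus (GGG, a purine, any 2 bases, 2 pyrimidines and CC), named after the transcription factor of inflammatory signaling. It was present in 8.46% of all 32851 windows and in those of 12 of the 37 genes, among them Ccr1, Ccl9, Ccl20 and Ackr2. In Cxcl1, Cxcl2 and Cxcl3 it begins 71, 97 and 73 bases before the start, and in Cxcl10 at 159 and 104 bases. The other motif was the core of the interferon-stimulated response element, GAAA repeated after any 2 bases, which was found in 3.44% of all windows and in those of Cxcl10 and Cxcl14, where it begins 213 and 172 bases before the start. Capitals mark the NF-kappa B consensus on either strand, overlapping matches joined, and in Cxcl10 also the response element, which is the first stretch of capitals. A match describes letters only and was not tested as a binding site.
Cxcl1 (chr5:90890995-90891294, plus strand): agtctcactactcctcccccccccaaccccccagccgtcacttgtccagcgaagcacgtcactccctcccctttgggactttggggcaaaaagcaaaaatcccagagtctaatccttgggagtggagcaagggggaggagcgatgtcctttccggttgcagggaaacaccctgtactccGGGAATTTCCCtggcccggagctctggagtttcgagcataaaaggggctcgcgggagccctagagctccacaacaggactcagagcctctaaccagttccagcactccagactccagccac
Cxcl2 (chr5:90903649-90903948, plus strand): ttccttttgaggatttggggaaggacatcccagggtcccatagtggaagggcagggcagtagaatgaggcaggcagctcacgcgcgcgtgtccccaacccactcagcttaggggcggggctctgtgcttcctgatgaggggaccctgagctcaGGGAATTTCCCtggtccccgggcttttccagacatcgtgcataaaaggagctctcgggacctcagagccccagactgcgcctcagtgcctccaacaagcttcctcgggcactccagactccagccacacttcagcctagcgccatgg
Cxcl3 (chr5:90785851-90786150, plus strand): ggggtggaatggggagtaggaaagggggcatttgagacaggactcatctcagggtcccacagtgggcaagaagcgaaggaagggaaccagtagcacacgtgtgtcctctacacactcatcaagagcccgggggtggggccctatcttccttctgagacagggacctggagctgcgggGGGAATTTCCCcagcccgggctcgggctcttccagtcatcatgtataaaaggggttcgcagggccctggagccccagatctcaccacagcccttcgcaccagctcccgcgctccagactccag
Cxcl10 (chr5:92348840-92349139, minus strand): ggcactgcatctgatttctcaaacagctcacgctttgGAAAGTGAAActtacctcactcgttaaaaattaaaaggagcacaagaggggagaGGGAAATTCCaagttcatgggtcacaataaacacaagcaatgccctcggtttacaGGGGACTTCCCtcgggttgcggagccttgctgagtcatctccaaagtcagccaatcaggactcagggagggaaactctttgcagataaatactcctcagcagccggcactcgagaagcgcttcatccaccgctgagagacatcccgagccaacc

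Cxcl1 (KC) read 4.98 and 4.48 in CD45+ cells, 12.49 and 12.43 in CD51+ BMSCs, 11.30 and 10.72 in BM-SSCs, 11.81 and 7.90 in P-SSCs, 11.58 in Nes+ BMSCs and 9.30 and 9.41 in Osx+ cells. All 9 arrays of the other populations were above both CD45+ arrays, by the least on P-SSC array 2. Its difference from CD45+ cells was 7.72 (standard error 1.06, adjusted p = 0.00863) in CD51+ BMSCs, 6.28 (standard error 1.06, adjusted p = 0.0133) in BM-SSCs, 5.12 (standard error 1.06, adjusted p = 0.0261) in P-SSCs and 4.62 (standard error 1.06, adjusted p = 0.0341) in Osx+ cells, and it was 1 of 2 genes higher in Osx+ cells. The mean of all its probe sets gave the same directions, without passing in P-SSCs and Osx+ cells.

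Cxcl2 (MIP-2) had another pattern, at 10.12 and 10.15 in CD45+ cells, 10.43 and 10.83 in CD51+ BMSCs, 9.61 and 7.41 in BM-SSCs, 8.47 and 6.23 in P-SSCs, 7.25 in Nes+ BMSCs and 4.20 and 6.29 in Osx+ cells. CD45+ and CD51+ arrays were at a similar height, above all others, and the lowest array was one of the Osx+ cells. Cxcl2 was lower in Osx+ cells than in CD45+ cells, with a difference of -4.89 (adjusted p = 0.0226), and higher in CD51+ BMSCs than in Osx+ cells by 5.38 (adjusted p = 0.0407). Cxcl3 read 2.97 and 3.23 in CD45+ cells, 5.16 and 6.02 in CD51+ BMSCs, 2.66 and 2.79 in BM-SSCs, 2.76 and 2.79 in P-SSCs, 2.05 in Nes+ BMSCs and 2.36 and 2.32 in Osx+ cells. Only the CD51+ arrays rose above 4, and CD51+ BMSCs were higher than CD45+ cells by 2.49 (adjusted p = 0.0103) and than Osx+ cells by 3.25 (adjusted p = 0.00549), while P-SSCs and BM-SSCs were lower than CD51+ BMSCs (-2.82 and -2.87). Cxcl5 and Cxcl15, of the same gene run on chromosome 5, did not exceed 3.81 and 5.44 and passed in no comparison.

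Interferon-inducible CXC ligands recruit Cxcr3+ T cells. Cxcl10 read 5.63 and 5.65 in CD45+ cells, 7.53 and 7.76 in CD51+ BMSCs, 8.79 and 6.96 in BM-SSCs, 7.76 and 5.25 in P-SSCs, 7.54 in Nes+ BMSCs and 6.68 and 6.29 in Osx+ cells. Its highest array was BM-SSC array 1, and both CD45+ arrays lay below all others but P-SSC array 2. No difference of Cxcl9, Cxcl10 or Cxcl11 passed in any comparison, and that of Cxcl10 was 2.23 (adjusted p = 0.157) for BM-SSCs and 0.86 (adjusted p = 0.429) for P-SSCs against CD45+ cells. Without array 2 of both SSC populations, Cxcl10 was higher in BM-SSCs than in CD45+ cells by 3.15 (adjusted p = 2.08e-05), in P-SSCs by 2.12 (adjusted p = 0.000148) and in BM-SSCs than in Osx+ cells by 2.31 (adjusted p = 0.000514).

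Among the other CXC and CX3C ligands, Cxcl14, a chemokine of skin and stroma, read 2.62 and 3.44 in CD45+ cells, 9.11 and 9.21 in CD51+ BMSCs, 6.55 and 7.98 in BM-SSCs, 8.61 and 5.21 in P-SSCs, 7.89 in Nes+ BMSCs and 5.83 and 6.26 in Osx+ cells. All arrays of the other populations were above both CD45+ arrays. It was higher than in CD45+ cells by 6.13 (standard error 1.01, adjusted p = 0.0156) in CD51+ BMSCs and 4.23 (standard error 1.01, adjusted p = 0.0445) in BM-SSCs, and the difference in P-SSCs of 3.88 (adjusted p = 0.0531) did not pass, while without array 2 of both SSC populations it was 5.58 (adjusted p = 1.16e-05). Cxcl13, the B cell attractant that acts on Cxcr5, read 4.29 and 4.03 in CD45+ cells, 5.47 and 5.82 in CD51+ BMSCs, 5.54 and 7.26 in BM-SSCs, 6.21 and 8.10 in P-SSCs, 5.78 in Nes+ BMSCs and 4.82 and 4.35 in Osx+ cells, and it passed as higher in P-SSCs than in CD45+ cells (2.99, adjusted p = 0.0434). Cxcl16, the ligand of Cxcr6, Cxcl17 and Cx3cl1 passed in no comparison. Cxcl16 was highest on array 2 of both SSC populations (8.41 and 9.16), against 5.90 to 7.56 on the other 9 arrays.

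**Figure D3:**
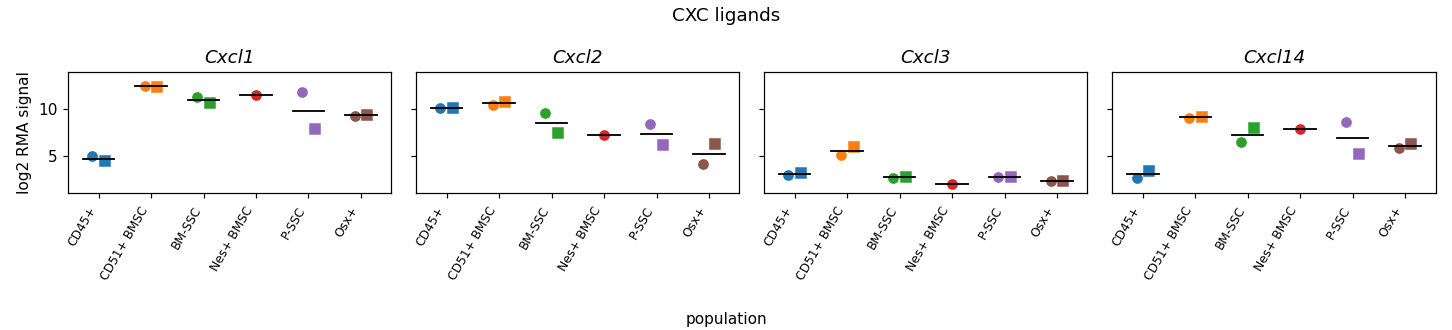
Log2 RMA signal (vertical axes, 1 to 14) of Cxcl1, Cxcl2, Cxcl3 and Cxcl14 by population (horizontal axes), with circles for array 1, squares for array 2 and a black line for the population mean. Cxcl1 and Cxcl14 are low in CD45+ cells and higher in the other populations, Cxcl2 is as high in CD45+ cells as in CD51+ BMSCs, and Cxcl3 is raised in CD51+ BMSCs alone.

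Among the 9 Ccr genes, 6 were lower in P-SSCs, BM-SSCs and Osx+ cells than in CD45+ cells and 5 were lower in CD51+ BMSCs, and 0 were higher. Ccr2, the receptor that brings monocytes out of the marrow, read 11.25 and 10.81 in CD45+ cells, 6.72 and 6.17 in CD51+ BMSCs, 4.27 and 4.66 in BM-SSCs, 3.64 and 4.04 in P-SSCs, 4.44 in Nes+ BMSCs and 2.96 and 3.69 in Osx+ cells. Ccr7, which guides T cells and dendritic cells to lymph nodes, read 8.70 and 8.65 in CD45+ cells, 4.39 and 3.95 in CD51+ BMSCs, 3.33 and 3.90 in BM-SSCs, 2.68 and 3.17 in P-SSCs, 2.95 in Nes+ BMSCs and 2.93 and 2.86 in Osx+ cells. Ccr1, the receptor of Ccl3, Ccl6 and Ccl9 on myeloid cells, read 9.88 and 10.03 in CD45+ cells, 8.81 and 9.28 in CD51+ BMSCs, 5.23 and 4.50 in BM-SSCs, 4.44 and 5.09 in P-SSCs, 4.55 in Nes+ BMSCs and 3.02 and 3.37 in Osx+ cells. Ccr2 and Ccr7 were highest on the CD45+ arrays by over 4 units, whereas Ccr1 was nearly as high in CD51+ BMSCs as in CD45+ cells.

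The differences of Ccr2 from CD45+ cells were -4.58 (standard error 0.406, adjusted p = 0.0028) in CD51+ BMSCs, -6.56 (standard error 0.406, adjusted p = 0.000786) in BM-SSCs, -7.19 (standard error 0.406, adjusted p = 0.000637) in P-SSCs and -7.70 (standard error 0.406, adjusted p = 0.000166) in Osx+ cells. Ccr7 was lower in the same 4 populations, by differences of -4.51 to -5.78. Ccr1 differed by -0.91 (adjusted p = 0.339) in CD51+ BMSCs, which did not pass, and by -5.09 in BM-SSCs, -5.19 in the P-SSCs and -6.76 in Osx+ cells, which did. 

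Ccr9, the receptor for the thymus and gut ligand Ccl25, read 9.65 and 9.30 in CD45+ cells, 7.14 and 6.56 in CD51+ BMSCs, 3.77 and 4.32 in BM-SSCs, 3.79 and 4.99 in P-SSCs, 3.89 in Nes+ BMSCs and 3.20 and 2.78 in Osx+ cells. Ccr3, the eotaxin receptor of eosinophils, read 7.03 and 6.76 in CD45+ cells, 3.27 and 3.27 in CD51+ BMSCs, 2.81 and 3.40 in BM-SSCs, 3.11 and 4.71 in P-SSCs, 3.36 in Nes+ BMSCs and 2.88 and 3.02 in Osx+ cells. Ccr6, the receptor for Ccl20 on B cells and some T cells, read 6.72 and 7.14 in CD45+ cells, 3.75 and 3.87 in CD51+ BMSCs, 4.18 and 4.74 in BM-SSCs, 4.61 and 5.30 in P-SSCs, 5.16 in Nes+ BMSCs and 4.02 and 4.04 in Osx+ cells. All 3 were highest on the CD45+ arrays, and among the others only the CD51+ arrays of Ccr9 exceeded 6. They were lower in all 4 populations, by differences between -1.97 (Ccr6 in P-SSCs) and -6.49 (Ccr9 in Osx+ cells). Ccr4, Ccr8 and Ccr10, receptors of T cell subsets, passed in no comparison. Of the 4 other probe sets of Ccr9, 2 had the same order of means, at 7.12 and 8.43 in CD45+ cells, 4.56 and 5.51 in CD51+ BMSCs and at most 4.14 elsewhere, and the remaining ones stayed under 5 in every population mean. With the mean of all probe sets in place of the brightest, 10 of the 103 calls were lost, among them those of Ccr9 in CD51+ BMSCs against CD45+ cells and against Osx+ cells.

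The 6 Cxcr and Cx3cr1 genes were all lower in Osx+ cells than in CD45+ cells, 5 were lower in each SSC population and 4 in CD51+ BMSCs. Cxcr4, which holds stem cells and leukocytes in the marrow, read 9.79 and 10.45 in CD45+ cells, 8.22 and 7.92 in CD51+ BMSCs, 6.34 and 5.18 in BM-SSCs, 4.90 and 5.11 in P-SSCs, 4.71 in Nes+ BMSCs and 3.25 and 3.64 in Osx+ cells. Its differences from CD45+ cells were -2.05 (adjusted p = 0.0448) in CD51+ BMSCs, -4.36 (adjusted p = 0.00238) in BM-SSCs, -5.12 (adjusted p = 0.00148) in P-SSCs and -6.68 (adjusted p = 0.000268) in Osx+ cells. Cxcr2, the neutrophil receptor for Cxcl1, Cxcl2 and Cxcl3, read 9.005 and 8.89 in CD45+ cells, 6.23 and 6.82 in CD51+ BMSCs, 4.87 and 6.34 in BM-SSCs, 4.98 and 6.31 in P-SSCs, 5.27 in Nes+ BMSCs and 4.10 and 3.96 in Osx+ cells, so it was highest where Cxcl1 was lowest. It was lower in BM-SSCs, P-SSCs and Osx+ cells (-3.34, -3.302 and -4.92), and its difference in CD51+ BMSCs of -2.42 (adjusted p = 0.0609) did not pass.

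Cxcr5, the receptor for Cxcl13 on B cells, read 8.24 and 8.46 in CD45+ cells, 3.25 and 2.90 in CD51+ BMSCs, 3.52 and 3.92 in BM-SSCs, 3.39 and 4.27 in P-SSCs, 3.79 in Nes+ BMSCs and 3.03 and 3.03 in Osx+ cells. Cxcr3, the T cell receptor for Cxcl9 and Cxcl10, read 7.61 and 7.39 in CD45+ cells, 3.75 and 3.86 in CD51+ BMSCs, 3.76 and 4.61 in BM-SSCs, 4.10 and 5.93 in P-SSCs, 4.05 in Nes+ BMSCs and 3.77 and 4.12 in Osx+ cells. Cx3cr1, a receptor of monocytes and macrophages, read 8.34 and 7.54 in CD45+ cells, 4.92 and 4.75 in CD51+ BMSCs, 4.72 and 5.06 in BM-SSCs, 4.28 and 5.85 in P-SSCs, 5.22 in Nes+ BMSCs and 4.77 and 4.32 in Osx+ cells. The CD45+ arrays were above all others for each gene. Differences from CD45+ cells passed in all 4 populations, from -4.52 to -5.32 for Cxcr5, from -2.48 to -3.69 for Cxcr3 and from -2.88 to -3.40 for Cx3cr1. Cxcr6, the T cell receptor for Cxcl16, passed only in Osx+ cells (-2.45, adjusted p = 0.0433).

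The median difference of the 19 receptors from CD45+ cells was -2.05 in CD51+ BMSCs, -3.05 in BM-SSCs, -2.48 in the P-SSCs and -3.40 in Osx+ cells, beside -0.02, 0.55, 0.85 and -0.06 for the 31 ligands. Hematopoietic markers were lower as well: of 24 measured, 11 were lower in CD51+ BMSCs, 19 in BM-SSCs, 21 in the P-SSCs and 23 in Osx+ cells. Over all probe sets the shares were 2.9%, 6.26%, 7.29% and 5.62%. The summed linear signal of these markers was 54449 to 55531 on the CD45+ arrays, 14678 to 15106 on the CD51+ arrays, 1936 to 3859 in BM-SSCs, 1332 to 2686 in P-SSCs, 1425 in Nes+ BMSCs and 925 to 1473 in Osx+ cells. The part of blood cells in the receptor differences was not tested.

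Population means of all 4 atypical receptors were lowest in CD45+ cells. Ackr3, which scavenges Cxcl12 and binds Cxcl11, read 3.35 and 3.36 in CD45+ cells, 12.51 and 12.53 in CD51+ BMSCs, 11.23 and 8.06 in BM-SSCs, 10.98 and 4.62 in P-SSCs, 10.85 in Nes+ BMSCs and 11.17 and 11.22 in Osx+ cells. Both CD45+ arrays were the lowest, and array 2 of each SSC population lay well below its array 1. The difference from CD45+ cells was 9.16 (standard error 1.84, adjusted p = 0.03) in CD51+ BMSCs and 7.84 (standard error 1.84, adjusted p = 0.0375) in Osx+ cells. In BM-SSCs and P-SSCs the differences of 6.29 (adjusted p = 0.08) and 4.44 (adjusted p = 0.141) did not pass, while without array 2 of both they were 7.87 (adjusted p = 2.25e-07) and 7.63 (adjusted p = 2.67e-07).

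Ackr1 (DARC), found on erythroid and venular endothelial cells, read 4.95 and 4.73 in CD45+ cells, 8.97 and 8.85 in CD51+ BMSCs, 5.98 and 7.05 in BM-SSCs, 6.46 and 6.43 in P-SSCs, 6.58 in Nes+ BMSCs and 5.11 and 4.78 in Osx+ cells. It was higher than in CD45+ cells by 4.07 (standard error 0.404, adjusted p = 0.00334) in CD51+ BMSCs, 1.67 (adjusted p = 0.0456) in BM-SSCs and 1.60 (adjusted p = 0.048) in P-SSCs, and the CD51+ BMSCs were above Osx+ cells by 3.97 (adjusted p = 0.00399). Beside it, 10 erythroid markers summed to a linear signal of 2360 to 3583 in CD51+ BMSCs, 552 to 820 in BM-SSCs, 685 to 2197 in P-SSCs, 413 in Nes+ BMSCs, 674 to 686 in CD45+ cells and 647 to 924 in Osx+ cells. The sum of 17 endothelial markers was 824 to 968 in CD51+ BMSCs, 1097 to 1464 in BM-SSCs, 926 to 2257 in P-SSCs, 829 in Nes+ BMSCs, 559 to 575 in CD45+ cells and 548 to 554 in Osx+ cells. Whether such cells account for Ackr1 was not tested.

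Ackr4, a scavenger of Ccl19, Ccl21 and Ccl25, read 4.58 and 4.77 in CD45+ cells, 7.04 and 6.69 in CD51+ BMSCs, 7.28 and 6.42 in BM-SSCs, 6.45 and 6.55 in P-SSCs, 6.93 in Nes+ BMSCs and 5.21 and 6.04 in Osx+ cells. It was higher than in CD45+ cells by 2.19 (adjusted p = 0.0272) in CD51+ BMSCs, 2.17 (adjusted p = 0.023) in BM-SSCs and 1.83 (adjusted p = 0.0383) in P-SSCs, and these calls were among those lost with the mean of its probe sets. Ackr2 (D6), a scavenger of inflammatory CC ligands, read 4.83 and 4.63 in CD45+ cells, 9.02 and 9.28 in CD51+ BMSCs, 8.66 and 5.61 in BM-SSCs, 8.41 and 5.27 in P-SSCs, 8.08 in Nes+ BMSCs and 6.38 and 6.50 in Osx+ cells. Both CD51+ arrays were above every other array, but array 2 of the SSCs fell near the CD45+ level and Ackr2 passed in no comparison, with 4.42 (adjusted p = 0.0735) in CD51+ BMSCs against CD45+ cells. Without array 2 of both SSC populations its difference from Osx+ cells was 2.22 (adjusted p = 0.000398) in BM-SSCs and 1.97 (adjusted p = 0.000448) in P-SSCs.

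**Figure D4:**
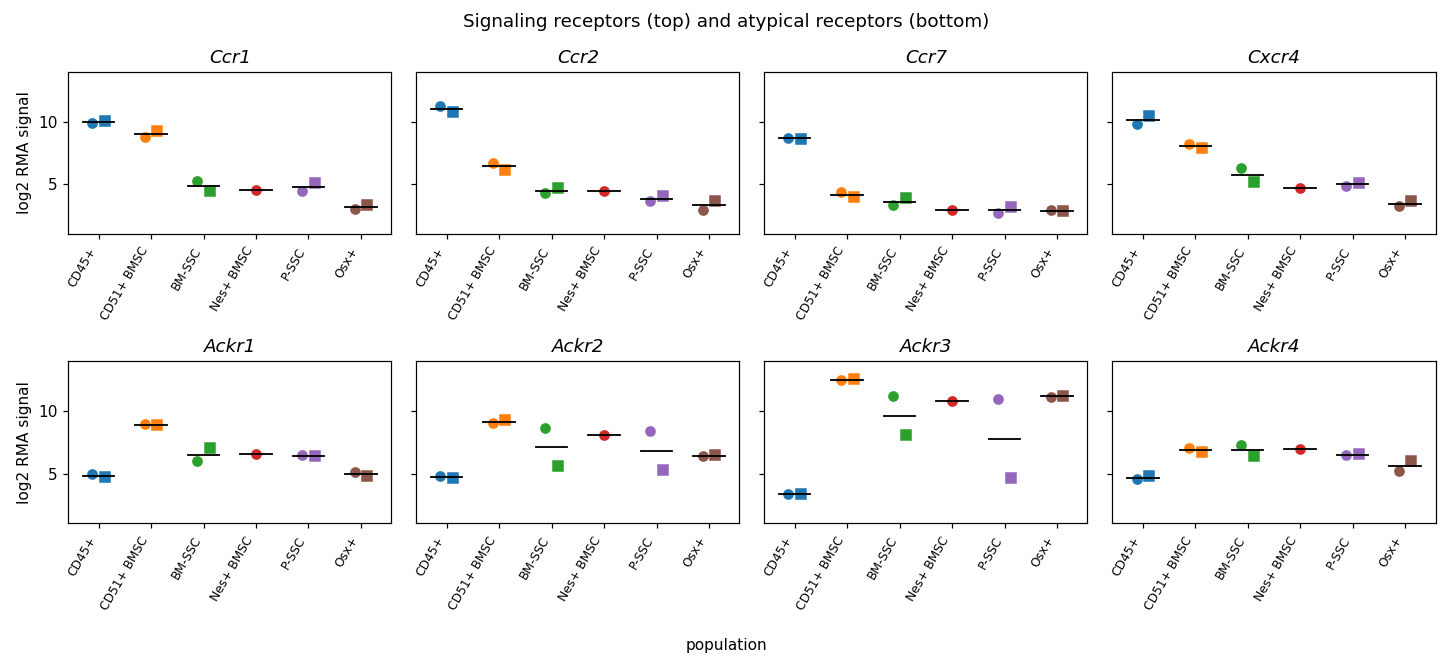
Log2 RMA signal (vertical axes, 1 to 14) of 8 receptors by population (horizontal axes), with circles for array 1, squares for array 2 and a black line for the population mean. Ccr1, Ccr2, Ccr7 and Cxcr4 in the top row are highest in CD45+ cells, and Ackr1 to Ackr4 in the bottom row are lowest there, with array 2 of the P-SSCs far below array 1 for Ackr2 and Ackr3.

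Direct comparison of CD51+ BMSCs with Osx+ osteoprogenitors gave 14 genes higher and 0 lower, where 1.51% of all probe sets were higher and 0.711% lower. The 14 were 9 ligands and 5 receptors: Ccl2, Ccl3, Ccl6, Ccl7, Ccl8, Ccl9, Ccl11, Cxcl2, Cxcl3, Ccr1, Ccr2, Ccr9, Cxcr4 and Ackr1. The median of the 50 genes was 1.02, beside -0.07 over all probe sets. Among the receptors, Ccr1 was higher by 5.85 (standard error 0.406, adjusted p = 0.00189), Cxcr4 by 4.63 (standard error 0.461, adjusted p = 0.00372), Ccr9 by 3.86 (adjusted p = 0.00829) and Ccr2 by 3.12 (adjusted p = 0.00919). The myeloid ligands Ccl6, Ccl3 and Ccl9 were higher by 5.83 (adjusted p = 0.00253), 4.30 (adjusted p = 0.0214) and 3.63 (adjusted p = 0.01). Cxcl1, Cxcl14 and Ackr3 had differences of 3.10 (adjusted p = 0.319), 3.12 (adjusted p = 0.278) and 1.32 (adjusted p = 1), which did not pass. For each of these genes both CD51+ arrays were above both Osx+ arrays. The standard errors come from all 11 arrays, so the wide spread of the SSC arrays enters these p-values.

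Blood cell markers moved the same way in this comparison. Of 24 hematopoietic markers 12 were higher and 0 lower in CD51+ BMSCs than in Osx+ cells, as were 12 of 21 measured monocyte and macrophage markers and 9 of 16 granulocyte markers. The summed linear signal of the monocyte and macrophage list was 20997 to 21651 in CD51+ BMSCs and 472 to 793 in Osx+ cells, beside 46774 to 53033 in CD45+ cells, and that of the granulocyte list was 99271 to 100418, 496 to 4511 and 120005 to 125099. Cd14, a monocyte and macrophage gene picked after its values were seen, read 12.06 and 12.18 in CD51+ BMSCs, 8.33 and 8.29 in CD45+ cells and 6.18 and 6.52 in Osx+ cells. Most of its list went the other way against CD45+ cells, with 7 of 21 means higher and 14 lower in CD51+ BMSCs. Of these, 3 passed as higher and 5 as lower, beside 2.95% and 2.9% of all probe sets. The part of these cells in the chemokine differences was not tested. Without CD51+ array 1 or 2 the count of 14 was 3 and 0, without Osx+ array 1 or 2 it was 2 and 4, and without CD45+ array 1 or 2, which enter through the shared variance, it was 9 and 9. Quantile normalization kept 8 of the 14 calls. With array 2 of both SSC populations left out it was 27 higher and 0 lower (13.3% and 11.4% of all probe sets).

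**Figure D5:**
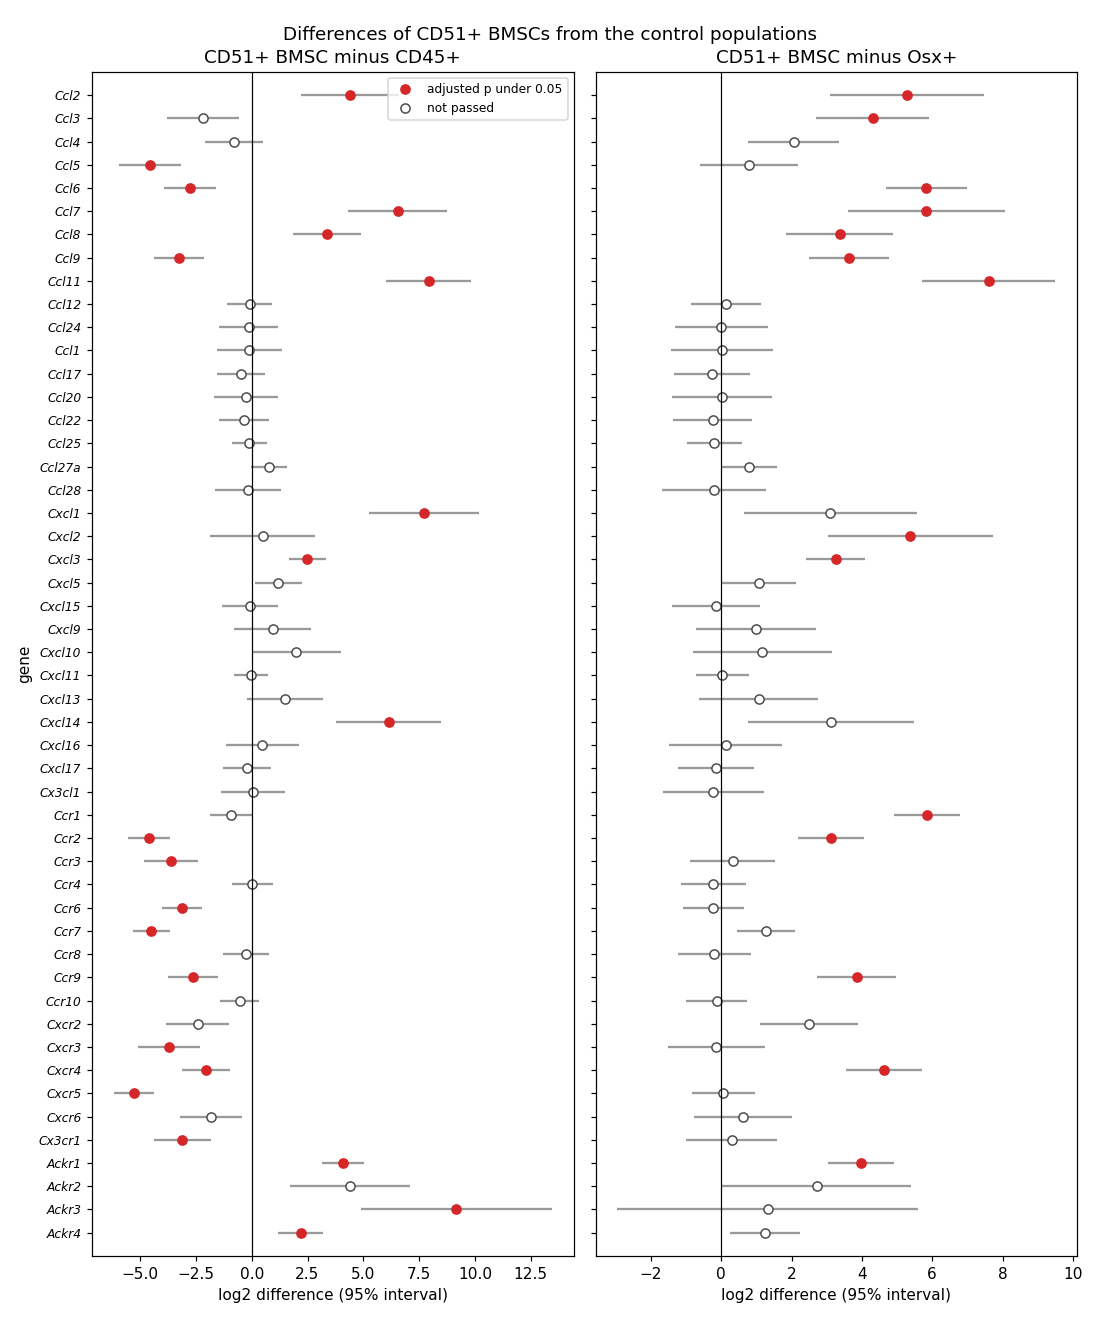
Differences in log2 RMA signal (horizontal axes) of the 50 genes, CD51+ BMSCs minus CD45+ cells and CD51+ BMSCs minus Osx+ cells, with 95% intervals from limma, filled red points where the adjusted p was under 0.05 and open points elsewhere. Against CD45+ cells filled points lie on both sides of 0 (10 higher, 12 lower), and against Osx+ cells they lie on the higher side only (14).

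Few of these genes passed between SSCs and CD51+ BMSCs. By limma, an unadjusted p under 0.05 was reached by 21 of the 50 in P-SSCs, beside 10146 of all 45037 probe sets. In BM-SSCs it was reached by 14, beside 5166 of all probe sets. The wide spread of the SSC arrays enters these p-values, so few calls do not show equal levels. P-SSCs had 0 higher and 5 lower (0.00444% and 0.591% of all probe sets), namely Ccl6 (-4.41, adjusted p = 0.0165), Ccr1 (-4.28, adjusted p = 0.0115), Cxcr4 (-3.07, adjusted p = 0.0401), Cxcl3 (-2.82, adjusted p = 0.0276) and Ccr2 (-2.60, adjusted p = 0.0453). BM-SSCs had 0 higher and 3 lower (0.0266% and 0.591%), namely Ccl11 (given above), Ccr1 (-4.18, adjusted p = 0.0116) and Cxcl3 (-2.87, adjusted p = 0.026). Hematopoietic markers were also lower, 4 of 24 in P-SSCs and 3 of 24 in BM-SSCs. Without CD51+ array 1 or 2, or CD45+ array 1 or 2, both counts were 0. Without Osx+ array 1 or 2 they were 2 and 2 in P-SSCs and 0 and 0 in BM-SSCs, without BM-SSC array 1 they were 8 and 8, without BM-SSC array 2 P-SSCs had 8, without P-SSC array 1 or 2 BM-SSCs had 8 and 8, and without P-SSC array 1 P-SSCs had 35. With only the populations compared in the fit 0 calls remained, and quantile normalization kept 2 of 5 in P-SSCs and 2 of 3 in BM-SSCs.

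On the arrays other than array 2 of the SSCs, P-SSCs had 6 genes higher and 19 lower than CD51+ BMSCs (13.7% and 15.9% of all probe sets), and BM-SSCs 2 higher and 19 lower (5.61% and 8.6%). Ccl7 and Ccl2 were then lower in BM-SSCs, with differences of -4.17 (adjusted p = 6.47e-05) and -3.16 (adjusted p = 0.000509), and in P-SSCs, with -2.62 (adjusted p = 0.000262) and -1.65 (adjusted p = 0.00546). Cxcl10 was higher in BM-SSCs by 1.14 (adjusted p = 0.0122).

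Against Osx+ cells, 0 of the 50 genes passed by limma in P-SSCs (0.0466% of all probe sets higher, 0.762% lower), and 0 passed in BM-SSCs (0.0311% and 0.584%). An unadjusted p under 0.05 was reached by 12 of the 50 in P-SSCs, beside 8147 of all 45037 probe sets. In BM-SSCs it was reached by 15, beside 4162 of all probe sets. Ccl11 differed by 2.95 (adjusted p = 0.188) and 2.27 (adjusted p = 0.433) in these comparisons. Leaving out P-SSC array 1 or 2 gave 24 and 3 for P-SSCs and 2 and 2 for BM-SSCs, which had 1 without BM-SSC array 1. On the remaining arrays without array 2 of both, P-SSCs had 19 higher and 0 lower (12% and 14% of all probe sets) and BM-SSCs 17 higher and 0 lower (7.15% and 7.46%). Ccl11 and Ccl2 were then higher by 3.71 (adjusted p = 4.97e-05) and 3.63 (adjusted p = 0.000172) in P-SSCs and by 3.54 (adjusted p = 7.76e-05) and 2.12 (adjusted p = 0.00226) in BM-SSCs. Cxcl2 was higher by 3.22 in P-SSCs and 4.36 in BM-SSCs, and Cxcr4 by 1.46 and 2.90. Blood cell markers were higher there too. The median difference of 16 granulocyte markers was 2.69 in P-SSCs and 2.82 in BM-SSCs. That of 24 hematopoietic markers was 0.80 and 1.12. The summed linear signal of the granulocyte list was 20324 for the P-SSC array kept and 30587 for that of the BM-SSCs. In Osx+ cells it was 496 and 4511. The part of blood cells in these differences was not tested.

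Between P-SSCs and BM-SSCs 0 genes passed by limma in either direction (0% of all probe sets). An unadjusted p under 0.05 was reached by 1 gene, beside 931 of all 45037 probe sets. It was Ccl6, with a difference of -1.50 (adjusted p = 0.98). The intervals were wide. The difference of Ackr3 was -1.84 (95% interval -6.12 to 2.43), that of Cxcl1 -1.16 (95% interval -3.62 to 1.30), that of Ccl2 -0.55 (95% interval -2.73 to 1.64) and that of Ccl11 0.68 (95% interval -1.22 to 2.57). Differences of several units were therefore not detectable, and the result does not show that the populations had equal levels. Without P-SSC array 1 the count was 11. Without array 2 of both populations 2 genes were higher in P-SSCs and 0 lower (0.464% and 1.6% of all probe sets), Ccl7 by 1.56 (adjusted p = 0.0182) and Cxcl14 by 2.06 (adjusted p = 0.0454), on 1 array each.

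Between BM-SSCs and the single array of Nes+ BMSCs 0 of the 50 genes passed by limma (0 higher, 0 lower, and 0% of all probe sets), with 1, Cxcl11, at an unadjusted p under 0.05, beside 376 of all 45037 probe sets. With both array 2 libraries of the SSCs left out, 4 were higher and 7 lower in BM-SSCs (15.8% and 12.1% of all probe sets), on 1 array against 1. The largest were Ccl3 at 1.75 and Cxcr4 at 1.62 among the higher, and Cxcl14 at -1.34 among the lower. The bioB spike-in read 6.51 on BM-SSC array 1 and 11.85 on the Nes+ array. The interquartile range of all probe sets was 3.15 and 2.44. Population and array quality cannot be told apart here.

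Other genes of the pathway were described with lists drawn up for this purpose. Of 39 measured genes, from 43 listed, that carry the signal inside the cell (G protein subunits, PI3 kinases, Src-family kinases, arrestins and regulators of G protein signaling), 14 were lower in P-SSCs, 13 in BM-SSCs, 9 in CD51+ BMSCs and 16 in Osx+ cells than in CD45+ cells, and 0, 0, 1 and 1 were higher. Over all probe sets 7.29%, 6.26%, 2.9% and 5.62% were lower in these populations, and 2.48%, 2.18%, 2.95% and 3.65% were higher. Rac2, the GTPase of blood cells that drives migration, differed from CD45+ cells by -5.05 (adjusted p = 0.00139) in P-SSCs, -4.99 (adjusted p = 0.00143) in the BM-SSCs and -6.53 (adjusted p = 0.00026) in Osx+ cells, and CD51+ BMSCs were above Osx+ cells by 4.63 (adjusted p = 0.00338). Between CD51+ BMSCs and Osx+ cells 5 of the 39 passed, all higher in CD51+ BMSCs (1.51% of all probe sets were higher), including Rgs1 (3.45, adjusted p = 0.0189) and Dock2 (2.37, adjusted p = 0.0178), which are known from leukocytes. The list shares genes with the hematopoietic markers, among them Rac2, Dock2 and Was of these 5, so the counts of both lists are not independent.

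Relatives of chemokines and of their receptors numbered 14. In CD51+ BMSCs, Rarres2 (chemerin, an attractant of macrophages) and its receptor Cmklr1 were higher than in CD45+ cells by 6.10 (adjusted p = 0.0118) and 2.57 (adjusted p = 0.0131), and Cd74 and Xcl1 were lower, with differences of -3.97 (adjusted p = 0.00702) and -2.12 (adjusted p = 0.0173). In P-SSCs, BM-SSCs and Osx+ cells 3, 3 and 4 of the 14 were lower and 0 higher, where 7.29%, 6.26% and 5.62% of all probe sets were lower. Among 24 measured, from 26 listed, cytokines and receptors that induce chemokines, Il1r1, the interleukin-1 receptor, was higher than in CD45+ cells by 3.65 (adjusted p = 0.0209) in CD51+ BMSCs, 3.62 (adjusted p = 0.014) in Osx+ cells and 2.84 (adjusted p = 0.038) in P-SSCs. Il1b, which encodes interleukin-1 beta, was higher than in Osx+ cells by 5.10 (adjusted p = 0.00189) in CD51+ BMSCs and 2.64 (adjusted p = 0.0228) in BM-SSCs, and lower in P-SSCs, BM-SSCs and Osx+ cells than in CD45+ cells. Counts for this list against CD45+ cells were 1 higher and 5 lower in P-SSCs, 0 and 3 in BM-SSCs, 2 and 1 in the CD51+ BMSCs and 1 and 4 in Osx+ cells. Each count of 1 is 4.17% of the list. This is near the share of all probe sets, which was 2.48% higher in P-SSCs, 2.9% lower in CD51+ BMSCs and 3.65% higher in Osx+ cells.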

How the data were processed

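Affymetrix Mouse430_2 arrays were read from the deposited table of log2 values, which the authors made from scanner files by robust multichip averaging (background correction, quantile normalization, median polish) in Partek GS and R. The authors named limma without a version. The values were used as deposited, as log2 signal. The table holds 45101 probe sets, and its 64 controls were not tested. Gene names came from GEO's platform annotation (35890 probe sets, of which 932 carry several symbols and name no gene here), and all 50 genes matched RefSeq by gene ID with the same symbol.

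Populations were compared by limma 3.58.1 under R 4.3.3, as a linear model with a mean per population over all 11 arrays (5 residual and 2.65 prior degrees of freedom), with p-values adjusted by the Benjamini-Hochberg method over 45037 probe sets within each comparison. All p-values come from this fit or an alternative of it. No filter on signal was applied. The script was tested on simulated data. The number of arrays limits the precision. The genes, roles, marker lists and pathway lists were chosen with earlier results of these data known. Any of the 50 genes could be named, with every array's value for those that passed with the largest differences (up to 10 per direction in a comparison) or had the widest range of population means, beside up to 4 genes of a pathway list that passed. Motifs were counted in RefSeq promoter windows. Alternatives were other normalizations, a fit of only the populations compared, a block for the array number, a variance trend with robust estimation, a signal filter, the mean of all probe sets, a minimum difference, and leaving out each array. The omission of array 2 in both SSC populations at once and array weights were added after seeing the data.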

Additional observations from a re-analysis of the deposited data

How the results depend on the processing

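Of the 103 gene-comparison pairs that passed, 0 changed direction under any alternative. Still passing were 66 with only the populations compared in the fit, 67 after quantile normalization, 92 after median centring, 98 with a variance trend and robust estimation, 83 with array weights and 93 with the mean of all probe sets. Quantile normalization and median centring moved the median difference of all probe sets by at most 0.261 and 0.335. The cause of these changes was not tested.

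Counts of genes that passed were as follows where they moved most. With only the populations compared, P-SSCs against CD45+ cells gave 0, BM-SSCs against CD45+ cells 10, CD51+ BMSCs against CD45+ cells 36, CD51+ BMSCs against Osx+ cells 26, and P-SSCs and BM-SSCs against CD51+ BMSCs 0 and 0. After quantile normalization, CD51+ BMSCs against CD45+ cells gave 11 (3 higher, 8 lower), CD51+ BMSCs against Osx+ cells 9 and P-SSCs against CD51+ BMSCs 2. Of the genes that passed against CD45+ cells under quantile normalization and median centring, 2 of 14 and 2 of 18 were higher in P-SSCs, and 0 of 18 were higher in Osx+ cells under median centring. BM-SSCs against CD51+ BMSCs gave 6 under median centring and 1 with the dim probe sets left out, where P-SSCs against CD51+ BMSCs gave 3. Array weights gave 35 for CD51+ BMSCs against CD45+ cells, 28 for CD51+ BMSCs against Osx+ cells, 9 for P-SSCs against CD45+ cells and 0 for P-SSCs against CD51+ BMSCs. Without array 2 of both SSC populations together, P-SSCs and BM-SSCs gave 33 and 31 against CD45+ cells, 19 and 17 against Osx+ cells and 25 and 21 against CD51+ BMSCs, CD51+ BMSCs against Osx+ cells gave 27, P-SSCs against BM-SSCs 2 and BM-SSCs against Nes+ BMSCs 11.

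Leaving out each array in turn gave 8 to 30 for P-SSCs against CD45+ cells, 8 to 27 for BM-SSCs, 2 to 25 for CD51+ BMSCs and 13 to 21 for Osx+ cells against CD45+ cells. The range was 0 to 24 and 0 to 2 for P-SSCs and BM-SSCs against Osx+ cells, 0 to 18 for CD51+ BMSCs against Osx+ cells, 0 to 35 and 0 to 8 for P-SSCs and BM-SSCs against CD51+ BMSCs, 0 to 11 for P-SSCs against BM-SSCs and 0 to 0 for BM-SSCs against Nes+ BMSCs.

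No source says that array numbers pair the samples, and not every pair of populations deviated together. The correlation of deviations from the population means was 0.784 between BM-SSCs and P-SSCs and between -0.267 and 0.0115 for the other pairs of populations. With the array number as a replicate block, P-SSCs against CD51+ BMSCs gave 3 in place of 5, and 94 of the 103 pairs still passed. The spread of the SSC arrays limits what passes: against CD45+ cells, differences in the SSCs from 1.60 (Ackr1 in P-SSCs) passed, while one of 6.29 (Ackr3 in BM-SSCs) did not.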
